A study of Mus musculus with 24 samples.

Results

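The comparison was between ileal tissue exposed to extracts of wild-type (WT) donor mice and tissue exposed to extracts of Asbt-/- donor mice, taken over both forms of the extract. It used 14 of the 24 libraries of the series: all libraries titled WT CME(-) or WT CME(+), 7 in all, and all titled KO CME(-) or KO CME(+), also 7, apart from 2 that the submitters removed for poor mapping (KO CME(-) replicate 3 and WT CME(+) replicate 2). Fragments of ileum from WT male C57BL/6J mice, starved for 4 h, were cultured with the extract for 8 h, and mRNA was counted by QuantSeq, a method that reads transcripts near their 3' end. The genotype is therefore that of the extract donor. The other libraries were DMSO solvent controls, taurochenodeoxycholate treatments and the 2 removed ones. The treated tissue was wild-type in every library, and it held Slc10a2 transcripts, which encode Asbt, at 96.1 to 396 CPM (library-size-scaled counts, with TMM factors).

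The 4 groups were WT CME(-) with 4 used libraries, WT CME(+) with 3, Asbt-/- CME(-) with 3 and Asbt-/- CME(+) with 4. The labels do not spell out CME. CME(+) was taken as the form depleted of bile acids, since the labels mention depletion of some extracts and give a concentration, 200 µM, for second-run CME(-) libraries and not for CME(+). The column names give replicate 1 of each group 1 prefix and replicates 2 to 4 another. These were taken as a first and a second run. In the second run the labels name 3 extract donors per genotype, and each donor gave the CME(-) and the CME(+) extract of 1 replicate number. No donor is named in the first run. Both libraries of an extract donor entered the main tests as separate, although genotype belongs to the donor. Nothing says from how many animals the treated fragments came, so each p-value rests on the variation among the libraries, part or all of which may be technical.

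Asbt takes bile acids up from the lumen of the terminal ileum at the brush border, and mice that lack it lose bile acids in the faeces, so their pool is smaller and of another composition. In ileal enterocytes bile acids activate the nuclear receptor FXR, which raises Fgf15, the hormone that slows bile acid synthesis in the liver, and the exporter genes Slc51a and Slc51b. The same cells absorb lipid, re-esterify it and package it with apolipoprotein B into chylomicrons. The comparison asks which genes of the tissue responded differently to the bile acid extracts of the 2 donor genotypes, and whether that held in both forms.

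Library totals ran from 2.76 to 5.07 M counts, and 1.63 to 3.64 M were left without mitochondrial rRNA and 1 abundant identifier with no symbol. All 24 enterocyte markers listed were tested, and Fabp6, the ileal bile acid binding protein gene, was at 2614 to 8206 CPM. The first-run libraries stood apart: in the model of genotype, form and run, 4689 of 12590 genes tested (37.2%) were called for run and 193 for form. Adipoq, an adipocyte gene, was at 13.7 to 49.7 CPM in the 4 first-run libraries and at 0 to 7.95 in the 10 of the second. Differences below are log2, Asbt-/- minus WT, with the run as a term in the model.

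Only 2 genes passed an edgeR adjusted p of 0.05 over both forms, 0.0159% of the genes tested, and both were lower with Asbt-/- extracts. Apob encodes apolipoprotein B, the protein on which enterocytes assemble chylomicrons. Gimd1 encodes a protein named for a GIMAP GTPase domain. The stretches before their start sites are shown because these are the genes on which the result rests. They come from RefSeq (build GRCm38.p6, an older build than the GRCm39 of the deposited counts), hold the 250 bases before the start and are on the plus strand. Apob has 1 entry, chr12:7977427-7977676. Gimd1 has 3 starts, of which the most upstream is shown, chr3:132629596-132629845. Capitals mark matches to any of 5 motifs, searched on both strands and chosen after these sequences had been read.
Apob: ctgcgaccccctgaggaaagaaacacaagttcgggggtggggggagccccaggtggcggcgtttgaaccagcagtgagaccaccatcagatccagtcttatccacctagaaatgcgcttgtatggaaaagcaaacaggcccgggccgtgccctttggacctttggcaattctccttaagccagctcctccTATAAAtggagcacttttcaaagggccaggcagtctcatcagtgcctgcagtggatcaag
Gimd1: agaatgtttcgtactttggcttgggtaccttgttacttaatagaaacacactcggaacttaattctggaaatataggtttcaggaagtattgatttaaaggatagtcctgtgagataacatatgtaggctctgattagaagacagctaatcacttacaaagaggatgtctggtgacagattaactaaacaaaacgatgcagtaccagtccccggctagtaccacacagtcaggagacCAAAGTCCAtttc
The capitals in Apob are the TATA box TATAAA, which begins 60 bases before the start and is in 12.4% of 32851 promoter stretches of this length. The capitals in Gimd1 are CAAAGTCCA, a motif of the hepatocyte and enterocyte factor HNF4A, in 0.384% of them. The related CAAAGGTCA (0.426%), the nuclear receptor half-site AGGTCA (14% of stretches) and its inverted repeat with a single base between, the arrangement FXR is known to bind (0.00609%), had no match in either. The half-site is contained in both of those longer motifs. The search was for exact letters. Apob also holds tggacctttg, which on the other strand has 1 letter more than CAAAGTCCA or CAAAGGTCA, and it is not marked. A match is a description of the letters and no evidence of binding.

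Apob was at 168, 486, 612 and 659 CPM in WT CME(-) replicates 1 to 4. In Asbt-/- CME(-) replicates 1, 2 and 4 it was at 96.6, 414 and 377 CPM. The depleted form gave 149, 536 and 696 CPM in WT CME(+) replicates 1, 3 and 4, against 139, 325, 427 and 381 CPM in Asbt-/- CME(+) replicates 1 to 4. Within each form and run every Asbt-/- library was below every WT library, narrowly in the first-run pair of CME(+). Apob fell by 0.59 on the log2 scale (SE 0.10, 95% interval -0.78 to -0.39), 1.5-fold, with an edgeR adjusted p of 0.00739. The difference was -0.64 within CME(-) and -0.53 within CME(+), and these did not differ beyond their error (-0.11, interval -0.51 to 0.28, unadjusted p = 0.563). In the DMSO libraries, replicates 2 to 4 of the second run, Apob was at 714, 995 and 418 CPM. The second-run WT libraries lay within that range, and all second-run Asbt-/- libraries but replicate 3 of CME(+) lay below it. Of the removed libraries, Asbt-/- CME(-) replicate 3 had 506 CPM, above the lowest second-run WT library, and WT CME(+) replicate 2 had 1164.

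Gimd1 was at low counts, 2 to 50 per library. It was at 10.7, 2.64, 3.94 and 15.8 CPM in WT CME(-) replicates 1 to 4 and at 0.583, 0.766 and 1.17 in Asbt-/- CME(-) replicates 1, 2 and 4. In CME(+) it was at 9.71, 7.61 and 9.13 CPM with WT extracts and at 5.21, 0.533, 2.32 and 1.84 with Asbt-/- extracts. The genotypes did not overlap within any form and run, but the first-run Asbt-/- CME(+) library lay above the 2 lowest WT libraries of CME(-). Gimd1 fell by 2.40 (SE 0.44, interval -3.30 to -1.51), 5.29-fold, adjusted p = 0.0277. The difference was -3.41 within CME(-) and -1.83 within CME(+), with an unadjusted p of 0.0904 for the difference between forms. DMSO libraries had 7.93, 23.7 and 10.8 CPM. The removed Asbt-/- CME(-) replicate 3 had 6.25 CPM, within the WT range.

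**Figure D1:**
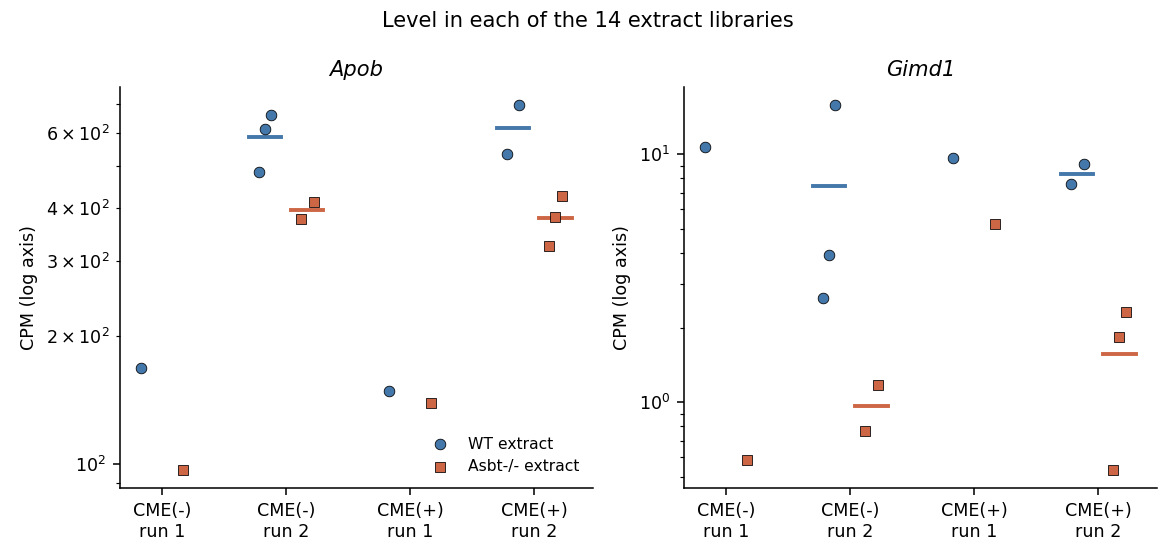
CPM of Apob and Gimd1 (vertical log axes) in the 14 extract libraries by form and run; each point is a library and horizontal lines are means of 2 or 3 second-run libraries. In all 4 strata the Asbt-/- libraries (squares) lie below the WT libraries (circles), and Apob is lower in run 1 for both genotypes.

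Separation of that kind was rare but not confined to these genes: 63 genes (0.5%) were lower, and 46 (0.365%) higher, in every Asbt-/- library than in every WT library of the same form and run. Both calls rest on the model. Without the run term the adjusted p was 1 for both genes, and in a fit that is not robust it was 0.11 for Apob and 0.126 for Gimd1. Without both libraries of WT replicate 4 the adjusted p was 0.18 for Apob and 0.212 for Gimd1, without Asbt-/- replicate 2 it was 0.0881 and 0.213, and without Asbt-/- replicate 4 it was 0.285 and 0.528. With the 2 poorly mapped libraries added it was 0.377 for both, at differences of -0.68 and -2.12. The differences stayed below 0 in all 38 alternatives for Apob, and in all 36 that gave a value for Gimd1. Genotype was also permuted over donors within run, both libraries of a donor, and both first-run libraries of a genotype, moving together. The exact two-sided p was 0.05 for each gene, the smallest possible with 40 arrangements, so no gene could pass adjustment this way. Both genes had been picked by their p in the same libraries.

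No further gene was called. At an unadjusted p under 0.05 there were 831 genes (6.6%), 383 higher (3.04%) and 448 lower (3.56%), where 629.5 would be reached by chance, and the third smallest adjusted p was 0.289. The median SE was 0.17 among the 8250 genes whose mean log2 CPM was 3 or more, and for 96.4% of them the 95% interval lay within a 2-fold difference either way. Within CME(-) alone 0 genes were called by edgeR (720 at an unadjusted p under 0.05, 5.72%, made up of 2.78% higher and 2.94% lower). Within CME(+) edgeR called 0 (718 at that p, 5.7%, with 2.85% on each side), and for the difference between the forms 0 (629, 5%, with 2.56% above 0 and 2.44% below). The corresponding limma-voom fits called 1 gene in each, the antibody gene Ighg2b, lower in CME(-) and higher in CME(+); this gene belongs to a family of near-identical copies and fell outside the rule for named genes. Across the same 8250 genes, the genotype differences in CME(-) and CME(+) correlated at r = 0.0587, over values from 1 model with a shared run term.

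The other 8 of the 10 genes with the smallest p on the lower side did not pass the test, and all had an adjusted p between 0.289 and 0.3. Cyp3a13, a steroid- and drug-oxidising cytochrome P450, ranged from 114.9 to 266 CPM with WT extracts (median 178) and from 74.6 to 211 with Asbt-/- extracts (median 101.2), a difference of -0.67 (interval -0.94 to -0.39). Slc15a1, the brush border di- and tripeptide carrier, had medians of 50.9 and 35.6 CPM and a difference of -0.65 (-0.97 to -0.34). Abcc2, the apical conjugate exporter, had medians of 109 and 81.5 CPM and -0.43 (-0.65 to -0.21). For each of these genes the ranges of the 2 genotypes overlapped.

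Slc23a4, a member of the nucleobase and ascorbate carrier family, was at -1.15 (-1.73 to -0.58), with 10 to 96 counts per library. Oasl2, an interferon-stimulated gene, was at -0.68, Tm4sf4, a tetraspanin-like membrane protein of absorptive cells, at -0.68, the aspartyl aminopeptidase Dnpep at -0.61, and the mitochondrial malate dehydrogenase Mdh2 at -0.34 (-0.52 to -0.17). Tm4sf4 and Slc23a4 were among the 0.5% of all genes lower in every form and run. Mdh2 was lower in each of 5 Asbt-/- than in each of 5 WT libraries of the second run, as 0.572% of all genes were.

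The 10 genes with the smallest p on the higher side were of varied function, and none passed the test. Prpf4, a splicing factor of the U4/U6 particle, was at 10.5 to 37.8 CPM with WT (median 16) and 24.3 to 39.5 with Asbt-/- extracts (median 31.7), a difference of 0.72 (0.36 to 1.08) that was 0.33 within CME(-) and 1.14 within CME(+). The epithelial 14-3-3 protein gene Sfn had medians of 82.8 and 118 CPM and a difference of 0.45 (0.21 to 0.68). Prps1, of nucleotide synthesis, was at 0.98, Lrpprc, which stabilises mitochondrial mRNAs, at 0.64, and Polr1a, the large subunit of RNA polymerase I, at 0.69. Arl3, Pdap1, Dnase1l3, the chemokine-binding receptor Ackr1 of venules, and Rnf166 were at 0.77, 0.34, 0.97, 0.98 and 0.77. Arl3, Dnase1l3, Ackr1, Rnf166 and Polr1a were higher in every form and run, as 46 of all genes (0.365%) were. Adjusted p ranged from 0.3 to 0.44 over these 10 genes.

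**Figure D2:**
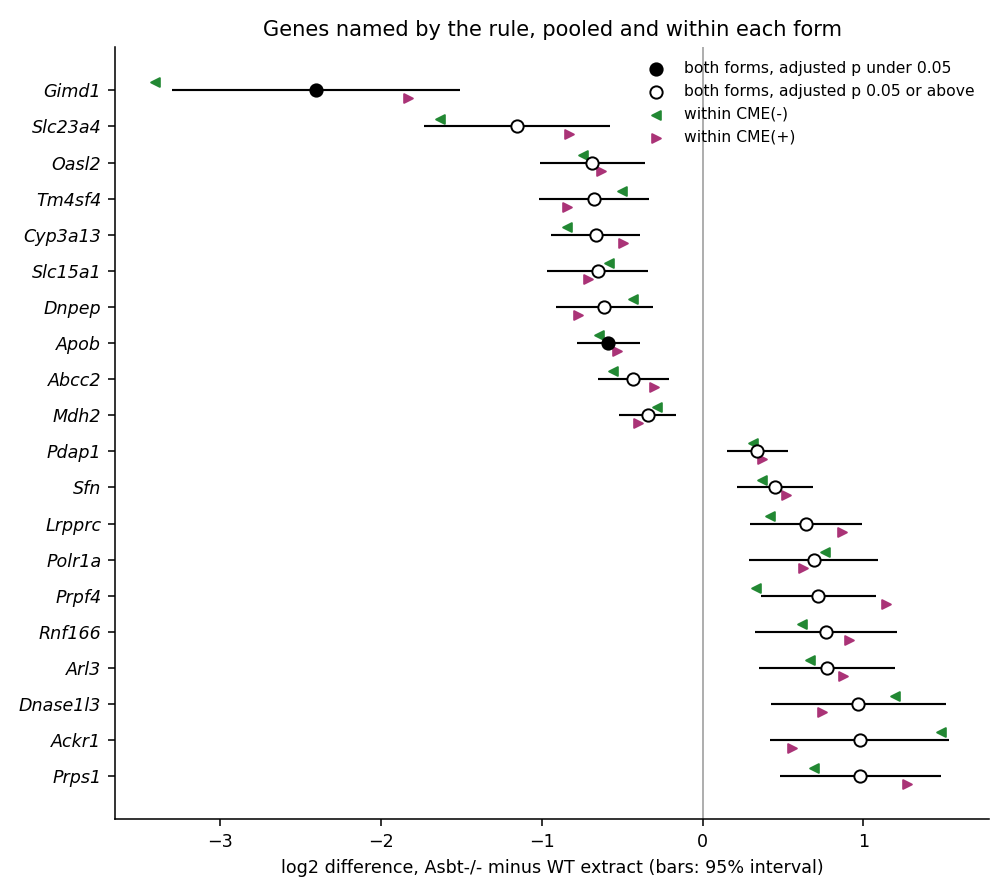
Log2 difference (horizontal axis, Asbt-/- minus WT) of the 10 lower and 10 higher genes described; circles with 95% bars are the pooled estimates, filled where the adjusted p is under 0.05, and triangles are the estimates within each form. Apob and Gimd1 are the filled circles, and the triangles of all 20 genes lie on the same side of 0 as their circle. The genes were picked by their pooled p in the same libraries, which favours such agreement, so it is no separate support.

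Apob belongs to a list of 18 genes of lipid absorption and lipoprotein assembly, chosen with earlier results of these data known. Most members lay on the same side, and Apob itself is counted in each value of the list. Of 18 tested, 17 had a difference below 0 and 1, the lipid droplet coat gene Plin2, was at 0.03. The list's median was -0.37, against -0.0015 over all genes tested. Only Apob was called, but 11 of 18 had an unadjusted p under 0.05 and a difference below 0, where 448 of all genes (3.56%) did. The medians were -0.30 within CME(-) and -0.41 within CME(+), and 16 members were below 0 in both forms.

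Among the apolipoproteins, Apoa4, a chylomicron protein that rises with fat absorption, was at 17.7 to 313 CPM with WT extracts (median 191) and at 5.64 to 133 with Asbt-/- extracts (median 67.5), a difference of -1.27 (interval -2.25 to -0.30, adjusted p = 0.63). Apoa1, the main protein of high-density lipoprotein, had medians of 931 and 679 CPM and a difference of -0.55 (-0.99 to -0.12). Apoc3, an inhibitor of lipolysis, had medians of 28.7 and 19.3 CPM and a difference of -1.04 (-1.78 to -0.30). Mttp, which loads lipid onto apolipoprotein B, was at -0.28 (-0.55 to -0.02), and Sar1b, the GTPase that lets chylomicrons leave the endoplasmic reticulum, at -0.19 (-0.38 to 0.01). In each of these 5 genes the levels of the 2 genotypes overlapped.

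The fatty acid binding proteins carry absorbed lipid through the cytosol. Fabp2, the intestinal form, was at 728 to 2605 CPM with WT (median 1059) and 422.5 to 1130 with Asbt-/- extracts (median 669), a difference of -1.02 (-1.67 to -0.37, adjusted p = 0.552). Fabp1, the liver form, had medians of 20.8 and 9.55 CPM and a difference of -0.96 (-1.53 to -0.39, adjusted p = 0.522). Both were lower in every Asbt-/- library than in every WT library of the same form and run. With Apob they were the 3 of 18 list members of which this held, as it did of 0.5% of all genes tested. In the first run each form had only a single library per genotype. WT CME(-) replicate 4 held the highest Fabp2 value, 2605 CPM, with the other 3 libraries of that group at 951 to 1059.

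Of the enzymes that rebuild triglycerides, Dgat1 was at -0.40 (-0.61 to -0.18, adjusted p = 0.326), Mogat2 at -0.35 (-0.79 to 0.10), Dgat2 at -0.11 and Acsl5, which activates fatty acids, at -0.30 (-0.50 to -0.11). The cholesterol genes were Npc1l1, the sterol importer, at -0.45 (-0.83 to -0.07) and Soat2, the sterol acyltransferase, at -0.59 (-1.06 to -0.13). The fatty acid carriers Slc27a4 and Cd36 were at -0.26 and -0.21, and the colipase gene Clps at -0.10. The intervals of Mogat2, Dgat2, Slc27a4, Cd36, Clps, Plin2 and Sar1b included 0. Of the 12 list genes with a stretch in the RefSeq promoter table, 0 held CAAAGTCCA or CAAAGGTCA, and 2, Apob and Fabp1, held TATAAA.

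**Figure D3:**
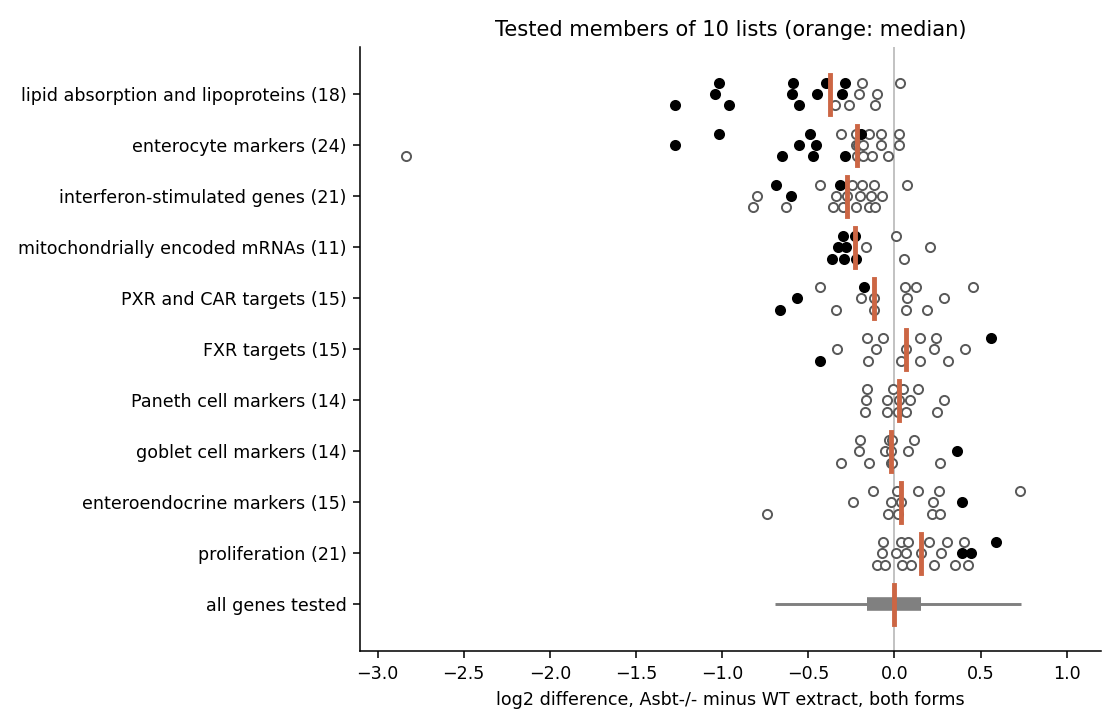
Log2 difference (horizontal axis, Asbt-/- minus WT, both forms) of each tested member of 10 lists, with its number of members in brackets; filled points have an unadjusted p under 0.05, orange lines are medians, and the grey bar shows the middle 50% (thick) and 95% (thin) of all genes tested. The lipid list has its median at -0.37 with 17 of 18 points left of 0, and the FXR targets have theirs at 0.07.

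The size of the list's difference was not the same in the 4 form and run strata. The median over the 18 genes was -0.27 in the first-run CME(-) pair and -0.37 in second-run CME(-). It was -0.03, with 9 members higher and 9 lower, in the first-run CME(+) pair, and -0.54, with 17 lower, in second-run CME(+). The mean of log2(CPM + 1) over the list was 6.39, 6.44 and 7.03 in WT CME(-) replicates 2 to 4 and 6.33 and 6.04 in Asbt-/- replicates 2 and 4. It was 6.77 and 6.95 in WT CME(+) replicates 3 and 4 and 5.86, 6.49 and 6.21 in Asbt-/- replicates 2 to 4. The second-run libraries of the genotypes did not overlap within either form, narrowly so in CME(-). Of the removed libraries, the Asbt-/- CME(-) one was at 6.44, above the lowest WT value, and the WT CME(+) one at 7.43. With the second run alone the list's median was -0.49 and 12 members had an unadjusted p under 0.05. Without WT replicate 4 the median was -0.29 and 5 members did, and without Asbt-/- replicate 4 they were -0.29 and 7. Over all genes tested, 902, 726 and 673 had such a p in these fits, in the same order.

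Enterocyte markers lay on the same side as the lipid genes. Of 24 tested, 22 were below 0, with a median of -0.22 and 0 called. At an unadjusted p under 0.05, 9 were below 0. Among all 12590 genes tested, 6330 were below 0 at any p, and 448 (3.56%) at that p. Of the 24 markers, 4 (Fabp2, Apoa1, Apoa4 and Mttp) are in the lipid list too. Over the other 20, 18 were below 0 with a median of -0.20, and 5 had an unadjusted p under 0.05. They included Slc6a19, the neutral amino acid carrier, at -0.49 (interval -0.76 to -0.22), the brush border phosphatase Alpi at -0.45 (-0.76 to -0.15), the glucose carrier Slc2a2 at -0.47 and the structural gene Vil1 at -0.20 (-0.38 to -0.01). Cdh17, the intestinal cadherin, was at -0.15 (-0.32 to 0.03). Lct, lactase, had the lowest difference of the list, -2.83 (-5.70 to 0.03), on 0 to 55 counts per library, and was at 0 in all 4 first-run libraries. In bulk tissue fewer cells of a type and less RNA per cell cannot be told apart.

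The enterocyte list depended on form and run. Its median was -0.51 in the first-run CME(-) pair, -0.07 in second-run CME(-), 0.25 in the first-run CME(+) pair and -0.51 in second-run CME(+), where 24 of 24 were lower. Without WT replicate 4 its median was -0.13 with 4 members at an unadjusted p under 0.05. Goblet cell markers had a median of -0.02 and enteroendocrine markers one of 0.04, both with 0 called.

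**Figure D4:**
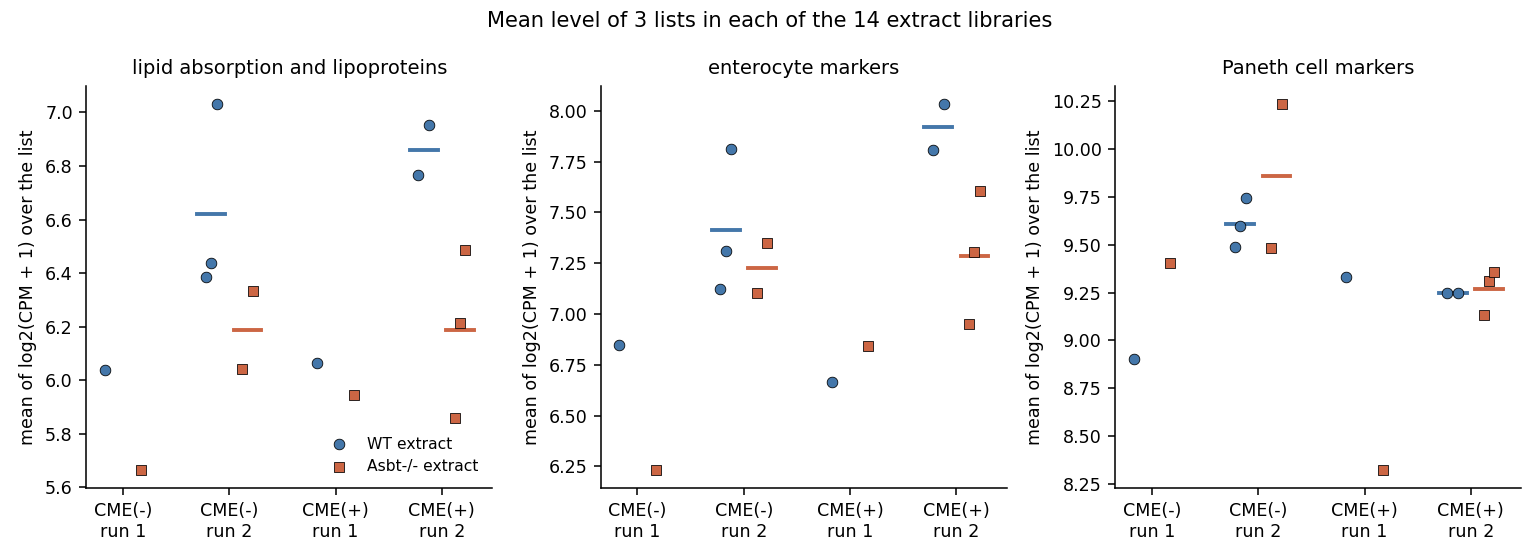
Mean of log2(CPM + 1) over the lipid, enterocyte and Paneth cell lists (vertical axes) in the 14 extract libraries by form and run; each point is a library, and lines are means of second-run libraries. Asbt-/- libraries lie below WT ones for the lipid list in all 4 strata, whereas the enterocyte list is reversed in the first-run CME(+) pair and the Paneth list changes order between the first-run pairs.

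No listed FXR target, bile acid receptor or bile acid carrier passed the test. Genes outside these lists may respond to bile acids too, which was not tested here. The lipid list's mean of log2(CPM + 1) was 6.76, 7.56 and 7.02 in DMSO replicates 2 to 4. In taurochenodeoxycholate replicates 2 to 4 it was 6.46, 5.56 and 5.46. The enterocyte list was lower there too, with means of 7.957, 8.485 and 8.174 in these DMSO libraries and 7.098, 6.2 and 6.256 with taurochenodeoxycholate. Fgf15 was at 311, 174, 125 and 105 CPM in WT CME(-) replicates 1 to 4 and at 316, 328 and 215 in Asbt-/- CME(-) replicates 1, 2 and 4. In CME(+) it was at 75.5, 40.2 and 77.4 CPM with WT and 58.7, 47.9, 73.5 and 82.7 with Asbt-/- extracts. The DMSO libraries, all of the second run, had 7.93, 5.93 and 7.18 CPM, and each second-run extract library of either genotype and form was above them. The first-run DMSO library, which the submitters removed for its DMSO concentration, had 10.9 CPM, below the 4 first-run extract libraries. In second-run CME(-) both used Asbt-/- libraries were above all 3 WT libraries, but the removed Asbt-/- replicate 3 had 159 CPM, within the WT range, and the first-run pair had nearly equal values. The pooled difference was 0.41 (interval -0.16 to 0.98, adjusted p = 0.845), 0.69 within CME(-) (unadjusted p = 0.0756) and 0.09 within CME(+), with an unadjusted p of 0.264 for the difference between forms.

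The exporter subunit Slc51a was at 228.5 to 322 CPM with WT (median 286) and 222 to 408.5 with Asbt-/- extracts (median 357), a difference of 0.24 (-0.05 to 0.54). Its partner Slc51b was at -0.06 (-0.31 to 0.18), Fabp6 at 0.04 (-0.15 to 0.22), and Slc10a2 itself, which FXR signalling lowers in the ileum, at 0.15 (-0.16 to 0.46). The intervals of these 4 genes lay within a 2-fold difference either way. Nr0b2, the FXR-induced repressor, had at most 4 counts in a library and was not tested. Of 15 FXR targets tested 9 were above 0 and 6 below, with a median of 0.07 and 0 called. One on each side had an unadjusted p under 0.05: Abcc2, described above, and Car12, a carbonic anhydrase gene, at 0.56 (0.06 to 1.06).

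Among 16 bile acid receptors and carriers 0 were called, 8 lay on each side and the median was -0.01. Abcc3, the basolateral conjugate exporter, was at 0.70 (0.13 to 1.27, adjusted p = 0.65), with 3.42 to 7.92 CPM for WT and 4.29 to 13.6 for Asbt-/- extracts. Its difference was 0.24 without both libraries of Asbt-/- replicate 1 and 0.29 without those of WT replicate 1. The receptor gene Nr1h4 (FXR) was at 0.15 (-0.17 to 0.47) and Vdr at 0.05. Of 15 targets of the xenobiotic receptors PXR and CAR, 0 were called and 3 had an unadjusted p under 0.05 on the lower side: Cyp3a13, the carboxylesterase Ces2a at -0.57 (-0.94 to -0.19) and the P450 reductase Por at -0.18 (-0.35 to -0.01). Of all genes tested, 3.56% were on the lower side at that p. Ces2 and Cyp3a genes have near-identical copies among which reads could have been divided.

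**Figure D5:**
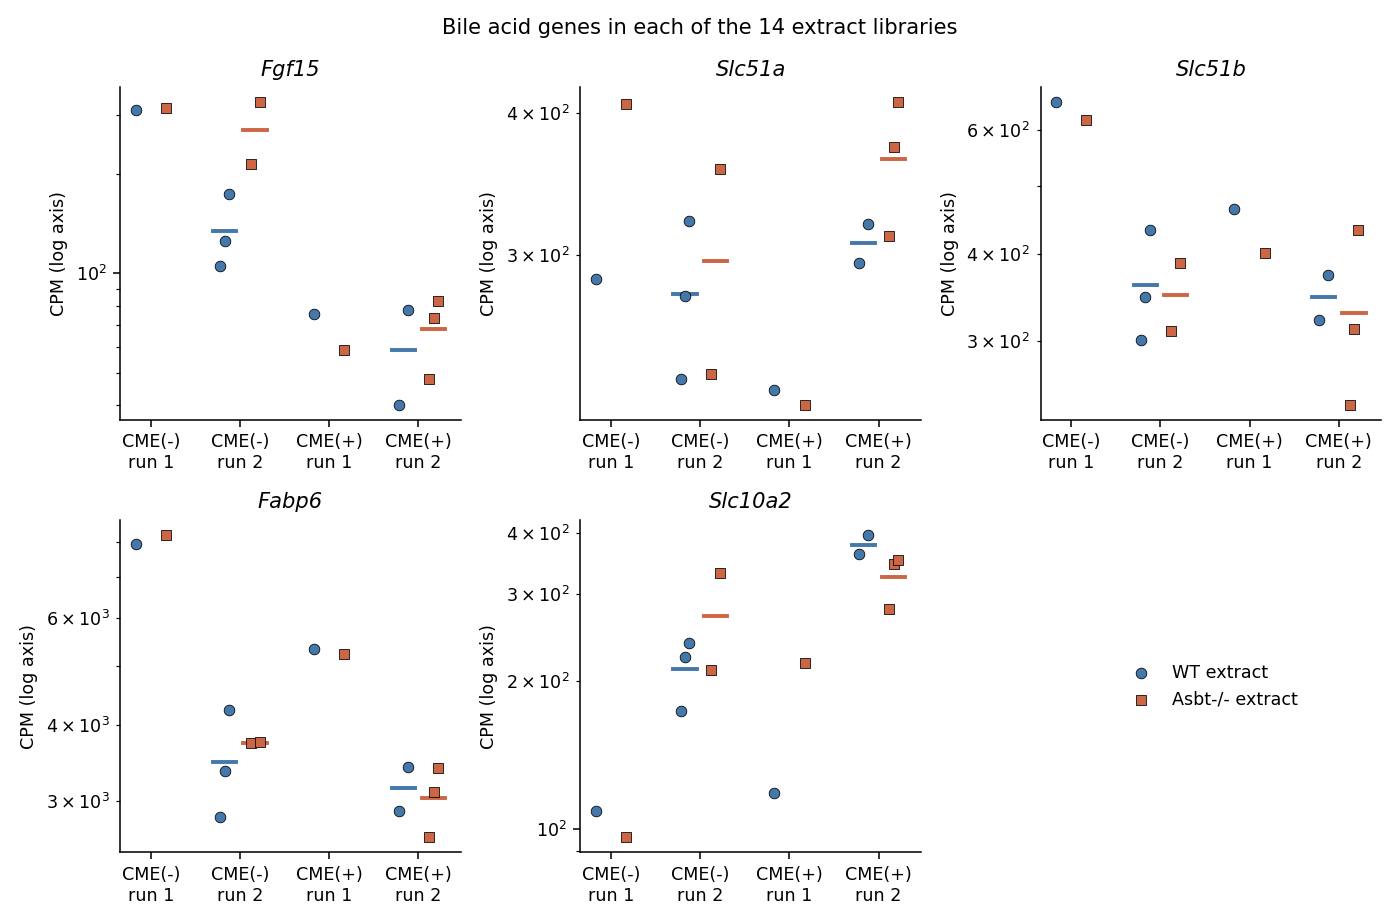
CPM (vertical log axes) of 5 bile acid genes in the 14 extract libraries by form and run; each point is a library and lines are means of second-run libraries. Genotypes overlap for each gene in at least 1 stratum or change order between strata, and Fgf15 is higher in CME(-) than in CME(+) for both genotypes.

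Interferon-stimulated genes lay below 0 in 20 of 21 cases with a median of -0.27, and 0 were called. At an unadjusted p under 0.05 there were 3 on the lower side, where 3.56% of all genes were. Among the 3 were Oasl2, described above, and the membrane tether Bst2 at -0.60 (-1.13 to -0.07). Only 12 were below 0 in both forms. The median was -0.62 in second-run CME(-) and 0.11 in second-run CME(+). Without WT CME(-) replicate 4 the list's median was -0.16 with 1 such gene.

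Of 11 mRNAs encoded by mitochondrial DNA, 8 were below 0, with a median of -0.23 and 0 called. Of these 8, 7 had an unadjusted p under 0.05, where 3.56% of all genes did on the lower side. mt-Co2, a cytochrome oxidase subunit, was at -0.36 (-0.55 to -0.18), mt-Nd4 and mt-Nd1 of complex I at -0.33 and -0.30, and mt-Cytb of complex III at -0.28. Nuclear genes of oxidative phosphorylation had a median of 0.05, with 16 of 22 above 0, but they differed by form. Their median was 0.09 within CME(-) and -0.06 within CME(+). Only 6 were above 0 in both forms, and 14 were above 0 in CME(-) and below 0 in CME(+). The share of counts from mitochondrial rRNA was 26.2 to 31.9% in WT and 24.6 to 27.4% in Asbt-/- CME(-) libraries of the second run, and 19.5 to 22.0% against 17.6 to 19.0% in CME(+). The second-run ranges overlapped in CME(-) and not in CME(+). In the first run the CME(-) pair went the other way, at 7.95% with WT and 8.29% with Asbt-/- extract, and the CME(+) pair was at 7.16 and 6.78%. The difference in the log2 share was -0.13, with an exact two-sided permutation p of 0.05 (genotype permuted over donors within run, both libraries of a donor together), the smallest possible with 40 arrangements. On the linear scale it was -2.25 percentage points with an exact p of 0.1, and on the log2 scale p = 0.2 in the second run alone, where 0.1 was the smallest possible. Permutations over both runs moved the first-run libraries of a genotype as if from a single donor, which the labels do not say. With this share as a covariate, a choice made after seeing the data, the mRNA list's median was -0.14 with 3 members at an unadjusted p under 0.05, and the lipid list's was -0.38 with 10.

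Cell cycle genes lay above 0 in 17 of 21 cases with a median of 0.15 and 0 called. At an unadjusted p under 0.05 there were 3 on the higher side, where 3.04% of all genes were. These 3 were genes of the helicase that opens replication origins, Mcm5 at 0.59 (0.10 to 1.07), Mcm6 at 0.44 and Mcm4 at 0.39. The list was not on 1 side throughout: 11 members were above 0 in both forms, and the first-run CME(+) pair had a median of -0.18 with 15 of 21 lower, against 0.12, 0.12 and 0.28 in the other 3 strata. Without WT replicate 4 the list's median was 0.05, with 12 above 0. Paneth cell markers, with a pooled median of 0.02, were at a median of 0.39 within CME(-) and -0.31 within CME(+), and 12 of 14 were above 0 in the first and below 0 in the second. For 9 of the 14 the difference between forms had an unadjusted p under 0.05, where 5% of all genes did, and 0 had an adjusted p under 0.05. Several of these markers are defensins with near-identical copies. The first-run CME(+) pair was at a median of -1.01 with 14 of 14 lower, and second-run CME(+) at 0.04. In both runs CME(-) was above 0, at 0.43 and 0.30.

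All 5 B and plasma cell markers tested lay above 0 over both forms, with a median of 0.71 and 0 called. The first-run CME(-) pair went the other way, at a median of -0.69 with 5 of 5 lower, and the other 3 strata had medians of 0.18 to 1.29. The pooled median was 0.13 with limma-voom and 1.33 without Asbt-/- CME(-) replicate 1. Their part in the other results was not tested.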

How the data were processed

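The authors deposited a table of raw counts per gene identifier for 24 QuantSeq 3' libraries made from 100 ng of total RNA. The submitters' processing notes name FastQC, cutadapt, HISAT2 and Picard with build GRCm39, without versions or roles. The counting tool is not given in the sources used here. Of 57126 identifiers 51884 had a symbol, matched by identifier, and these held 88.1% of the counts. Genes were tested with edgeR 4.0.16 in R 4.3.3 (filterByExpr, TMM scaling, robust quasi-likelihood test, Benjamini-Hochberg adjustment, threshold 0.05) on 14 libraries with genotype, form and run as terms, and with 4 groups and run for the values within a form. The pooled genotype difference was tested on simulated counts with known changes, and the values within a form were not. These counts were drawn from the fitted model with each library independent, so they cannot show the effect of shared donors or animals. Runs were read from the column names. Each fold or log2 value is a fitted difference. Alternatives used limma 3.58.1, DESeq2 1.42.0, other scalings and filters, and left out libraries or donors. The members and the gene lists were chosen with earlier results of these data known. Named are 6 bile acid genes, the called genes, those with the smallest p to make 10 per direction among genes whose mean log2 CPM was 3 or more, and up to 4 members per list. Other lipid list members, Cdh17, Abcc3, Nr1h4, Vdr, Lct, Adipoq and Ighg2b were named after their values were seen. Replicate numbers were not taken as pairs.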

Additional observations from a re-analysis of the deposited data

Results flagged for a closer look

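In groups of 4 libraries, 125 group values were examined for a library far from the other 3, and 21 met the criterion, where chance gives about 1 in 20. Of these 21, 15 were replicate 1, the only first-run library of its group, and 14 were in Asbt-/- CME(+).

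In the first-run Asbt-/- CME(+) library the CPM values that stood above the other 3 were Npc1l1 at 57.0, Sar1b at 118.1, Cd36 at 15.3, Vil1 at 469, Cdh17 at 869, mt-Nd4 at 25310, mt-Nd1 at 7039 and mt-Cytb at 12850. Sfn was below the others there, at 77.3 CPM, and the mitochondrial rRNA share was 6.78% against 17.6 to 19.0%. In the first-run WT CME(-) library mt-Nd4 was above the others at 47260 CPM. Car12 at 3.63, Abcc2 at 31.4, Sfn at 67.7 and Polr1a at 3.21 CPM were below them.

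In the second run, Fabp2 stood at 2605 CPM in WT CME(-) replicate 4, against 951 to 1059 in the other 3. Nr0b2 had 0.404 CPM there, from a single fragment, with 0 in the others. In Asbt-/- CME(+), Slc27a4 was at 62.3 CPM in replicate 2, below the others. Creb3l3 at 192 and Rnf166 at 18.6 CPM in replicate 3, and Dnase1l3 at 15.1 in replicate 4, were above them.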

How the results depend on the processing

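Over both forms the 2 calls became 0 without scaling factors (1187 genes at an unadjusted p under 0.05), without the run term (364), in the 6-group model of 21 libraries (686), with the 2 poorly mapped libraries added (916) and in the fit that is not robust (856). They became 1 with limma-voom, with the extract donor as a random block and with a stricter filter (mean log2 CPM of 3 or more). Without a count filter they became 33 (8 higher, 25 lower). The correlation within donors was estimated at -0.0774, so the donor block did not make the genotype test stricter. It had 1115 genes at an unadjusted limma-voom p under 0.05, against 947 for limma-voom without the block. Leaving out a library or donor gave 0 to 5 calls over both forms, 0 to 4 within CME(-), 0 to 2 within CME(+) and 0 to 2 for the difference between forms. It gave 0 over both forms without Asbt-/- replicate 2 (803 genes at an unadjusted p under 0.05) or 4 (673), and 5 without Asbt-/- replicate 1 or 3. Within CME(-) the 0 calls became 1 with limma-voom, 1 with the donor block, 16 without a count filter and 1 in the second run only. Within CME(+) they became 1, 1, 20 and 1, and 1 with the mitochondrial rRNA share as a covariate, chosen after seeing the data. For the difference between forms they became 1 with limma-voom, 1 with the donor block and 8 without a count filter. The cause was not tested.

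Apob lay between -0.68 and -0.48 in 38 alternatives and was called in 29. Gimd1 lay between -2.80 and -2.09 in 36 and was called in 15, and DESeq2 gave no adjusted p for it. Leaving out WT replicate 2 or Asbt-/- replicate 3 repeated a fit without a single library, since the partner library had been removed. Each of these fits called both genes, and these counts hold it both as a library and as a donor left out. DESeq2 called 3 genes, Cyp3a13, Tm4sf5 and Apob.

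The replicate block, in place of the run term, gave 3 calls (Gimd1, Cyp3a13 and Apob), with Apob at -0.55 (adjusted p = 0.0349) and Gimd1 at -2.24 (0.0349). Second-run libraries of the same number and other genotype correlated at -0.11 to 0.06 in their deviations over 8 pairs, so the numbers were not taken to pair the samples.

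Genes near 0 changed sign. Slc51b was at 0.033 without scaling factors, which moved the median of all genes to 0.10. Clps was at 0.006 without scaling factors, 0.131 in the second run only and 0.005 with the poorly mapped libraries added, and Plin2 at -0.122 in the second run only. Leaving out a library or donor gave -0.033 to 0.094 for Fabp6, -0.252 to 0.151 for Clps and -0.141 to 0.13 for Plin2. At 2.76 to 5.07 M counts per library, genes of few counts such as Gimd1 and Nr0b2 were measured with little precision.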

Other observations

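None of the lists that follow had a call. Cholesterol synthesis genes had a median of 0.04 with 15 of 25 above 0, heat shock genes 0.10 with 10 of 14, and genes of the unfolded protein response -0.01 with 7 of 16. Fatty acid oxidation and other PPAR targets were below 0 in 14 of 21 cases (median -0.05), 3 of them at an unadjusted p under 0.05. Tuft cell markers were above 0 in 7 of 8 cases (median 0.24). Crypt and Wnt genes were above 0 in 6 of 11 (median 0.09), 2 at an unadjusted p under 0.05. Of all genes tested, 3.56% were lower and 3.04% higher at that p. Myeloid, fibroblast, smooth muscle and endothelial markers had medians of -0.02, 0.01, 0.01 and -0.04. The 4 AhR targets tested had a median of 0.29, which was -0.09 over those with a mean log2 CPM of 3 or more. Adipocyte and mesothelial markers, 6 genes, had a pooled median of -0.38 that hides opposite signs by run: 0.22 and 0.56 in the first-run CME(-) and CME(+) pairs against -0.55 and -1.07 in the second run. It ranged from -0.94 to 0.19 over the alternatives.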
